A study of Mus musculus with 8 samples.

Results

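The genes described here are 71 odorant receptor (OR) genes of the mouse, those measured by a row of the array with a single gene symbol within Olfr467 to Olfr542 (52 genes) or Olfr694 to Olfr720 (19 genes). They are 71 of 1035 rows with a single OR symbol, and of 23410 rows with a gene symbol. These numbers run up to and follow Olfr543 to Olfr693, the numbers of the class I OR cluster of chromosome 7. The arrays measured mRNA of the olfactory mucosa from mice on postnatal day 1, on a mixed 129 x C57BL/6J background. The 4 knockout samples were 123Cre:Emx2(fl/fl) mice. The 4 controls were littermates of 2 genotypes, 123Cre:Emx2(fl/+) in replicates 1 and 4 and Emx2(fl/fl) without Cre in replicates 2 and 3. The floxed Emx2 allele is therefore carried by every sample, Cre by all knockouts and by the controls of the first genotype. In 123Cre mice recombination starts in immature olfactory sensory neurons (OSNs) and takes place in some OSNs only, so the knockout is a mosaic, and the samples are of the whole mucosa rather than of sorted OSNs.

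ORs are the G protein-coupled receptors by which OSNs detect odorants. Each mature OSN expresses a single allele of a single OR gene, so the abundance of an OR mRNA in the mucosa depends on how many OSNs chose that gene and on how much of the mRNA each of them makes. In bulk tissue, fewer cells of a type and less RNA per cell cannot be told apart. OR genes lie in clusters, in which neighbours often belong to the same family. Class I ORs resemble the receptors of fish and share a single cluster, while class II ORs make up the rest. The homeodomain proteins Lhx2 and Emx2 bind DNA whose core reads TAAT, and such sites are common in OR promoters and enhancers. MOR names, such as MOR204-15, give the family and the member within it.

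The members were all matched to the reference gene table (RefSeq, assembly GRCm38.p6) by gene number, and the order of the genes there was set against the description of them as class II genes beside the class I cluster. MOR names placed 70 of them in class II and 1, Olfr504 (MOR40-15), in class I. On chromosome 7 lay 70 members, and Olfr720 (MOR274-2) lay on chromosome 14. The 2 members of the MOR101 family, Olfr520 and Olfr521, came before Olfr543 to Olfr693 in the order of chromosome 7 and the other 68 came after them, so the members do not stand evenly on both sides. A gap of over 1 Mb without a member split the 68 into a central block of 56 (Olfr695 to Olfr716, then Olfr467 to Olfr518) and a distal block of 12 (Olfr522 to Olfr541). The members belonged to 15 MOR families. MOR204 was the most numerous with 29 members, all in the central block, and MOR283 had 10, also there. The distal block held the 4 members of MOR251, the 3 of MOR253 and the 2 of MOR252. The reference holds 78 protein-coding genes with these numbers. Another 11 rows carried several receptor symbols with a member among them and were left aside, because probes of near-identical receptors can read more than a single gene.

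The sequence in front of these genes was examined for the letters TAAT, since the deleted factor is a homeodomain protein. A RefSeq window of 250 bases before the annotated start was given for 66 members. In 54 of them the gene model has the length of a coding part alone, so the window may end at the start codon and need not hold the promoter. The other 12 gene models were longer or of a length that a coding part alone would not have. Where the coding part starts in them was not checked. From these 12, Olfr478 of MOR204 in the central block, Olfr521 of the pair before the class I genes, Olfr711 of the central block and Olfr536 of the distal block are shown, so that each stretch of chromosome 7 has an example and both more and fewer matches can be seen. Capitals mark TAAT on the printed strand and its reverse complement ATTA, and every window reads 5′ to 3′ towards the gene (GRCm38.p6).
Olfr478: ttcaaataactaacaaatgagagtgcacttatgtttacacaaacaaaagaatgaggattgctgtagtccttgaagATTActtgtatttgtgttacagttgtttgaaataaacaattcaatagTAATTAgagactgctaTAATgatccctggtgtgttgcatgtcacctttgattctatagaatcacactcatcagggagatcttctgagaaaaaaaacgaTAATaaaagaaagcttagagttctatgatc
Olfr521: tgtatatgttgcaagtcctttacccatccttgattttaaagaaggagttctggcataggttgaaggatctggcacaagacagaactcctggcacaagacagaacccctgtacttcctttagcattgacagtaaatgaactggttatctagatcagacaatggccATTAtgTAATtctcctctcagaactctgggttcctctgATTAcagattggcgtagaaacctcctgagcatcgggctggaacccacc
Olfr711: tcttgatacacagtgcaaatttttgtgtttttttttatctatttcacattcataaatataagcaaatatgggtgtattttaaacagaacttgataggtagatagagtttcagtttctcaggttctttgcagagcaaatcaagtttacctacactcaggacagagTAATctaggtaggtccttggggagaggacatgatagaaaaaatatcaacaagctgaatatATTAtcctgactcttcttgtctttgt
Olfr536: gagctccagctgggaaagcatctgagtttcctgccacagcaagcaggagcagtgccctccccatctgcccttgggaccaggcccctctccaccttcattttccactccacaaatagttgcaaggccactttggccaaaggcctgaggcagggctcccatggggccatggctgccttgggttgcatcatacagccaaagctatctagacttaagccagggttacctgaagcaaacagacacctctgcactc
The window of Olfr478 lies at chr7:108033968-108034217 on the minus strand, that of Olfr521 at chr7:99766914-99767163 on the plus strand, that of Olfr711 at chr7:106975452-106975701 on the minus strand and that of Olfr536 at chr7:140507319-140507568 on the minus strand. Olfr478 had 5 matches, among them the palindrome TAATTA, in which both strands match and which counts as 2. Olfr521 had 3 matches, Olfr711 had 2 and Olfr536 had 0. The gene model of Olfr521 is 967 bases long, so its window too may end at or near the start codon.

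Over the members, 58 of 66 windows (87.9%) held TAAT on either strand, against 94.8% of the windows of other ORs and 54.9% of all 32851 windows in the table. In the central block 51 of 52 windows held it, with a median of 4.5 matches. In the distal block 4 of 11 held it, with a median of 0. All 26 windows of MOR204 had it, with a median of 6 matches, while 1 of the 4 windows of MOR251 did. TAATTA stood in 12.1% of the members' windows, 18.5% of those of other ORs and 4.84% of all windows. Among the 12 members whose model did not have the length of a coding part alone, 11 had TAAT. These are counts of letters and not binding sites, and most of the members' windows may directly precede a start codon. Members of a family did not always have like windows. After global alignment Olfr525 and Olfr532 of MOR251 shared 88.4% of bases and Olfr527 and Olfr531 of the same family 84.4%, while the other 4 pairs of that family shared 60.8% to 61.6% and the MOR252 pair 55.6%. The median was 62.0% over 325 pairs of MOR204 genes (56.4% to 92.4%) and 59.6% over 1750 pairs of members of different families, where the highest value was 66.4%.

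Emx2 mRNA, the target of the deletion, was at 10.797, 10.857, 10.997 and 10.725 in the controls and at 9.803, 9.862, 10.009 and 9.931 in the knockouts (deposited log2 values, as are all values below). The groups did not overlap, and the difference was -0.94 ± 0.082 (SE, n = 4 per group, limma adjusted p = 0.0014). Lhx2 differed by -0.004 ± 0.067 (adjusted p = 1) and Omp, the marker of mature OSNs, by -0.06 ± 0.071 (adjusted p = 1). The array of knockout replicate 2 was least like the rest, with a mean correlation of 0.978 to them against 0.987 to 0.990, and it had a limma array weight of 0.17. The mean over 18 mature OSN genes lay between 11.321 and 11.514 in the knockouts and between 11.524 and 11.606 in the controls, with 14 of the 18 genes lower and 0 past an adjusted p of 0.05. Of 15 immature OSN genes 13 were lower, and of the ciliated cell list 8 of 9 were higher, with a median of 0.23. The part of these cell type lists in the members' differences was not tested. The array numbers in the sample names run from A1 to A8, and the members' values also moved with them, as described further on.

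Most members were lower in the knockout, by little. The median difference (knockout minus control, log2) was -0.203 over the 71 members, -0.186 over the other OR rows and 0.004 over all rows tested. Without knockout replicate 2 the medians were -0.121 for the members and -0.054 for the other OR rows. The difference was below 0 for 54 members and above 0 for 17, and the range was -0.782 to 0.537. At an unadjusted p under 0.01 (limma), 4 members were lower, Olfr485, Olfr714, Olfr523 and Olfr703, where 1.30% of all rows were lower at that threshold, and 0 members were higher, where 0.436% of all rows were. Of the 4, Olfr714 and Olfr703 were among the dimmest 30% of rows by mean over all samples. Of the 964 other OR rows 37 were lower and 8 higher at an unadjusted p under 0.01 (limma). Among those rows, 8 of the 110 of Olfr543 to Olfr693 were lower. At an unadjusted p under 0.05, 20 members were lower (3.06% of all rows) and 6 were higher (3.04% of all rows). Of the 964 other OR rows 120 were lower and 18 higher at that threshold. With p adjusted over all rows tested, 0 members passed 0.05 in limma, where 0.359% of all rows did, and the methods' t-test also passed 0. The lowest adjusted p was 0.404, for Olfr485. The split by direction depended on how arrays were centred. With each array centred on the mature OSN genes, which moves the median of all rows from 0.004 to 0.135, 0 members were lower and 6 were higher at an unadjusted p under 0.01, where 0.568% of all rows were lower and 4.25% higher, and the members' median was -0.072 with 45 members below 0 and 26 above.

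**Figure D1:**
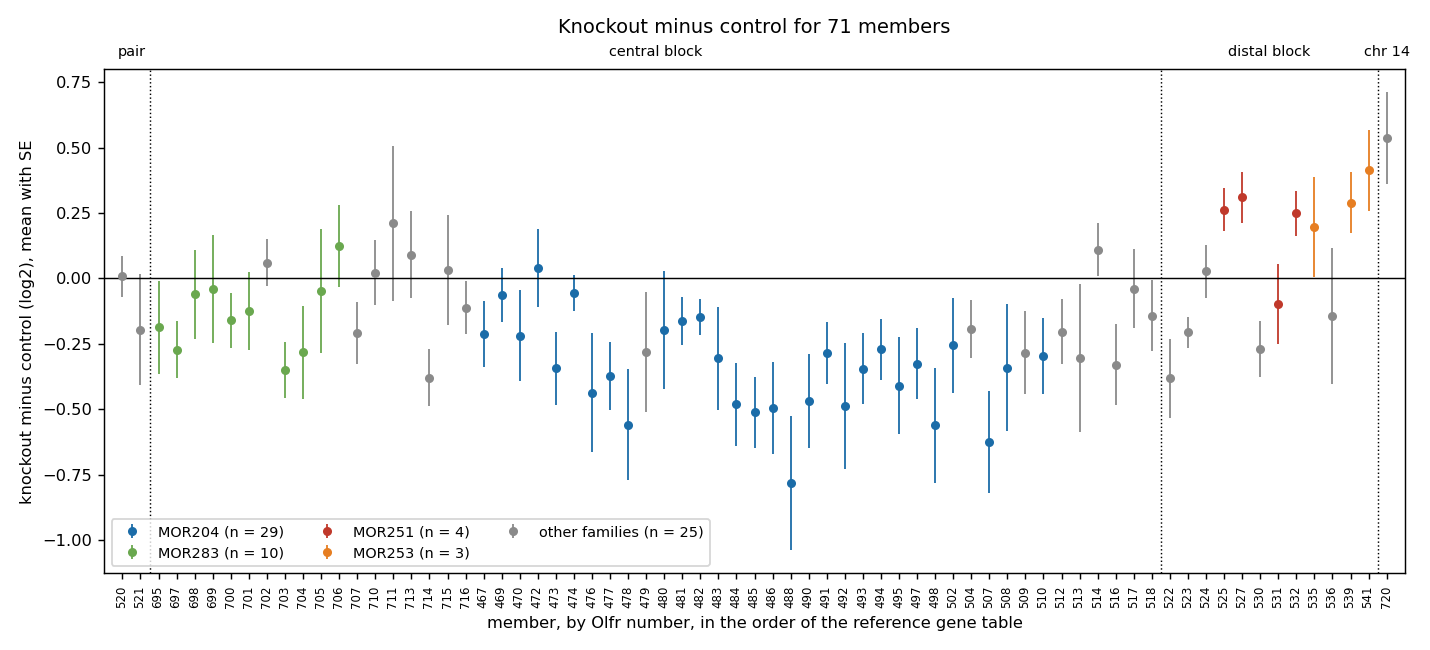
Knockout minus control on the log2 scale (vertical axis, points with SE from limma, n = 4 per group) for the 71 members in the order of the reference gene table (horizontal axis, Olfr numbers), coloured by MOR family. Points of MOR204 lie mostly between -0.78 and 0, while MOR253 and 3 of the 4 MOR251 genes at the right lie above 0.

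The 29 MOR204 genes, the most numerous family among the members, lay mostly on the lower side. Their differences ranged from -0.782 to 0.04 with a median of -0.341. Of the 29, 28 were below 0, and 14 were lower at an unadjusted p under 0.05, where 3.06% of all rows were. Of the 964 other OR rows 742 were below 0 and 120 were lower at that threshold. Among those, the 110 rows of Olfr543 to Olfr693 had a median of -0.33, with 103 below 0 and 33 lower at that threshold. The MOR204 median without knockout replicate 2 was -0.223, and with centring on mature OSN genes it was -0.21 with 26 genes below 0. The mean over the family was 7.66, 7.43, 7.82 and 7.72 in the controls and 7.14, 7.07, 7.47 and 7.57 in the knockouts. The groups overlapped, since control replicate 2 lay below knockout replicates 3 and 4. An array row that was left aside carries the symbols of Olfr507 and Olfr482 of this family at once. Members of MOR204 may therefore share probes and need not be independent measurements.

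Olfr485 (MOR204-30P) was at 9.02, 8.99, 9.19 and 8.88 in the controls and at 8.19, 8.38, 8.79 and 8.67 in the knockouts. All 4 knockouts lay below all controls. The difference was -0.512 ± 0.136 (SE, n = 4 per group, unadjusted p = 0.00458, adjusted p = 0.404), or 0.701 of the control level. Olfr488 (MOR204-15), which has the largest difference of all members, was at 9.80, 9.33, 10.04 and 9.81 in the controls and at 8.48, 8.53, 9.47 and 9.38 in the knockouts. The groups overlapped in control replicate 2, and knockout replicates 1 and 2 lay well below replicates 3 and 4. Its difference of -0.782 ± 0.257 had an adjusted p of 0.675, and its value without knockout replicate 2 was -0.638. Olfr507 (MOR204-7) was at 7.993, 7.665, 8.046 and 7.998 in the controls and 6.787, 7.150, 7.574 and 7.696 in the knockouts. Control replicate 2 lay below knockout replicate 4 and apart from the other controls. The difference of -0.624 ± 0.194 had an adjusted p of 0.602. Olfr495 (MOR204-37) was at 9.56, 9.32, 9.72 and 9.75 in the controls and 8.85, 8.86, 9.41 and 9.59 in the knockouts. The groups overlapped, with a difference of -0.409 ± 0.184 (adjusted p = 0.826).

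The other 27 genes of the central block had a median of -0.143 and a range of -0.38 to 0.211. Their median was -0.063 without knockout replicate 2, and -0.012 with centring on mature OSN genes, where 14 were below 0 and 13 above. Olfr714 (MOR263-2) was at 7.39, 7.33, 7.57 and 7.74 in the controls and at 7.20, 6.94, 7.13 and 7.24 in the knockouts, again with no overlap. Its difference was -0.38 ± 0.109 (unadjusted p = 0.00689, adjusted p = 0.479). Its neighbour in the family, Olfr713 (MOR263-1), chosen after its values were seen, had a difference of 0.091 ± 0.165 (adjusted p = 1). Olfr17, another gene of MOR263, lies within the order of the central block under a number outside the rule and was also chosen after its values were seen. Its difference was -0.391 ± 0.169 (adjusted p = 0.813). Olfr2 and Olfr6 of MOR103, the family of Olfr711, lie on chromosome 7 under numbers outside the rule. Likewise chosen after their values were seen, they differed by -0.215 ± 0.141 and 0.067 ± 0.281. Olfr703 (MOR283-7) was at 7.23, 7.29, 7.39 and 7.43 in the controls and at 6.98, 6.71, 7.05 and 7.20 in the knockouts. All knockouts lay below all controls, and the highest knockout was close to the lowest control. The difference was -0.349 ± 0.107 (unadjusted p = 0.00997, adjusted p = 0.574). The MOR283 family ranged from there to 0.123, with 9 of 10 genes below 0, or 5 of 10 with centring on mature OSN genes, and a median of -0.142, or -0.041 without knockout replicate 2. It held Olfr704 at -0.282 ± 0.178 (adjusted p = 0.932).

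Families with few members on the array gave mixed values. The 5 MOR260 genes ranged from -0.207 (Olfr707, adjusted p = 0.904) to 0.061, with Olfr716 at -0.111 ± 0.1 (adjusted p = 1). The 5 MOR268 genes at the end of the central block ranged from -0.33 (Olfr516, adjusted p = 0.836) to 0.11, with Olfr512 at -0.203 ± 0.124. Olfr513, the single MOR195 gene, was at 9.78, 9.92, 9.86 and 9.92 in the controls and at 9.35, 8.74, 10.29 and 9.87 in the knockouts. The controls lay close together, and the knockouts lay on both sides of them. The difference of -0.305 ± 0.283 (adjusted p = 1) was -0.031 without knockout replicate 2. Olfr711 (MOR103-4), the member of the central block with the highest difference, was at 8.40, 8.61, 8.50 and 8.63 in the controls and 8.83, 7.76, 9.02 and 9.38 in the knockouts. Here 3 knockouts lay above all controls and knockout replicate 2 below them, with a difference of 0.211 ± 0.296 (adjusted p = 1). The class I gene by name, Olfr504, differed by -0.194 ± 0.11 (adjusted p = 0.9).

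The 2 genes before the class I receptors did not stand out from their spread. Olfr520 differed by 0.009 ± 0.078 (adjusted p = 1), and Olfr521 by -0.196 ± 0.212 (adjusted p = 1). Both were among the dimmest 30% of rows by mean over all samples, above which lay 46 of the 71 members, 33 of the central block and all 12 of the distal block.

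In the distal block 7 of 12 genes were above 0, with a median of 0.113, where the median of the central block was -0.264. Without knockout replicate 2 these medians were 0.185 and -0.162. At an unadjusted p under 0.05, 5 genes of the distal block were higher and 3 lower, beside the 3.04% and 3.06% of all rows given above. The 4 MOR251 genes had a median of 0.256. Olfr525 (MOR251-2) was at 7.98, 7.87, 7.91 and 8.14 in the controls and at 8.17, 8.37, 8.19 and 8.23 in the knockouts. All knockouts lay above all controls, with a difference of 0.263 ± 0.082 (unadjusted p = 0.0111, adjusted p = 0.613). Olfr532 (MOR251-1), whose window resembles that of Olfr525, was at 7.30, 7.44, 7.43 and 7.32 in the controls and at 7.81, 7.47, 7.59 and 7.61 in the knockouts. These groups did not overlap either, with a difference of 0.249 ± 0.086 (unadjusted p = 0.0185, adjusted p = 0.706). Olfr527 (MOR251-5) was at 8.24, 8.10, 8.23 and 8.40 in the controls and at 8.51, 8.73, 8.38 and 8.60 in the knockouts. Knockout replicate 3 lay just below control replicate 4, and the difference was 0.31 ± 0.097 (unadjusted p = 0.011, adjusted p = 0.611). Olfr531 (MOR251-3), whose window resembles that of Olfr527, lay on the other side of 0 and differed by -0.097 ± 0.152 (adjusted p = 1).

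The 3 MOR253 genes were all above 0, from 0.197 to 0.413. At an unadjusted p under 0.05 (limma) 2 of them were higher, as were 3.04% of all rows and 18 of the 964 other OR rows. Olfr541 (MOR253-3) was at 8.55, 8.29, 8.98 and 8.50 in the controls and at 8.96, 9.10, 8.72 and 9.19 in the knockouts. The groups overlapped, because control replicate 3 lay above 2 of the knockouts, and the difference was 0.413 ± 0.156 (adjusted p = 0.764). Olfr539 (MOR253-4) was at 7.684, 7.700, 8.002 and 7.871 in the controls and at 8.134, 7.867, 8.065 and 8.351 in the knockouts, a difference of 0.29 ± 0.117 (adjusted p = 0.784). The family has 5 more genes in the order of this block whose numbers lie outside the rule. Of these, chosen after their values were seen, Olfr45 had the largest difference, 0.648 ± 0.161 (unadjusted p = 0.00312, adjusted p = 0.335), Olfr53 differed by 0.188 ± 0.131, Olfr61 by 0.156 ± 0.098, Olfr46 by 0.059 ± 0.127 and Olfr60 by -0.038 ± 0.186. Several array rows carry up to 9 symbols of this family at once, so its members may share probes and are not independent measurements.

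Of the remaining 5 genes of the distal block 4 were below 0, and Olfr524 (MOR103-14P) differed by 0.028 ± 0.101 (adjusted p = 1). Olfr523 (MOR104-4) had the smallest SE of the members. It was at 8.74, 8.69, 8.76 and 8.75 in the controls and at 8.52, 8.48, 8.52 and 8.60 in the knockouts. The groups did not overlap, and the small difference of -0.206 ± 0.06 (0.867 of the control level) had an unadjusted p of 0.00773 and an adjusted p of 0.508. Olfr522 (MOR103-5), next to it, was at 8.73, 8.30, 8.45 and 8.29 in the controls and at 8.01, 8.47, 7.83 and 7.94 in the knockouts. Knockout replicate 2 lay among the controls, and the difference was -0.382 ± 0.152 (adjusted p = 0.782). The 2 MOR252 genes were both below 0, also with centring on mature OSN genes, with a median of -0.208 that was -0.012 without knockout replicate 2. Olfr536 (MOR252-1) was at 9.56, 9.90, 9.76 and 9.65 in the controls and at 9.98, 8.70, 9.91 and 9.72 in the knockouts. A single library set its sign, since knockout replicate 2 lay far below every other sample, and the difference of -0.145 ± 0.26 (adjusted p = 1) became 0.149 without it. For the other gene of that family, Olfr530, the difference was -0.271 ± 0.107 (unadjusted p = 0.0321, adjusted p = 0.776), and -0.173 without that sample.

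Olfr720 (MOR274-2), the member on chromosome 14, had the highest difference of all members. It was at 9.23, 9.29, 9.35 and 9.39 in the controls and at 10.12, 9.31, 9.79 and 10.18 in the knockouts. Knockout replicates 1, 3 and 4 lay above all controls, and knockout replicate 2 lay among them. The difference was 0.537 ± 0.175 (unadjusted p = 0.0136, adjusted p = 0.662), or 1.45 times the control level. Without knockout replicate 2 it was 0.715 with an adjusted p of 0.0229, and with limma array weights 0.703 with an adjusted p of 0.019. Both fits discount the same sample, whose array weight was 0.17, so they are not separate checks. At an unadjusted p under 0.01 (limma) they called 3.14% and 4.94% of all rows, against 1.74% in the main fit. Olfr720 was the single member past an adjusted p of 0.05 in any of the fits made.

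**Figure D2:**
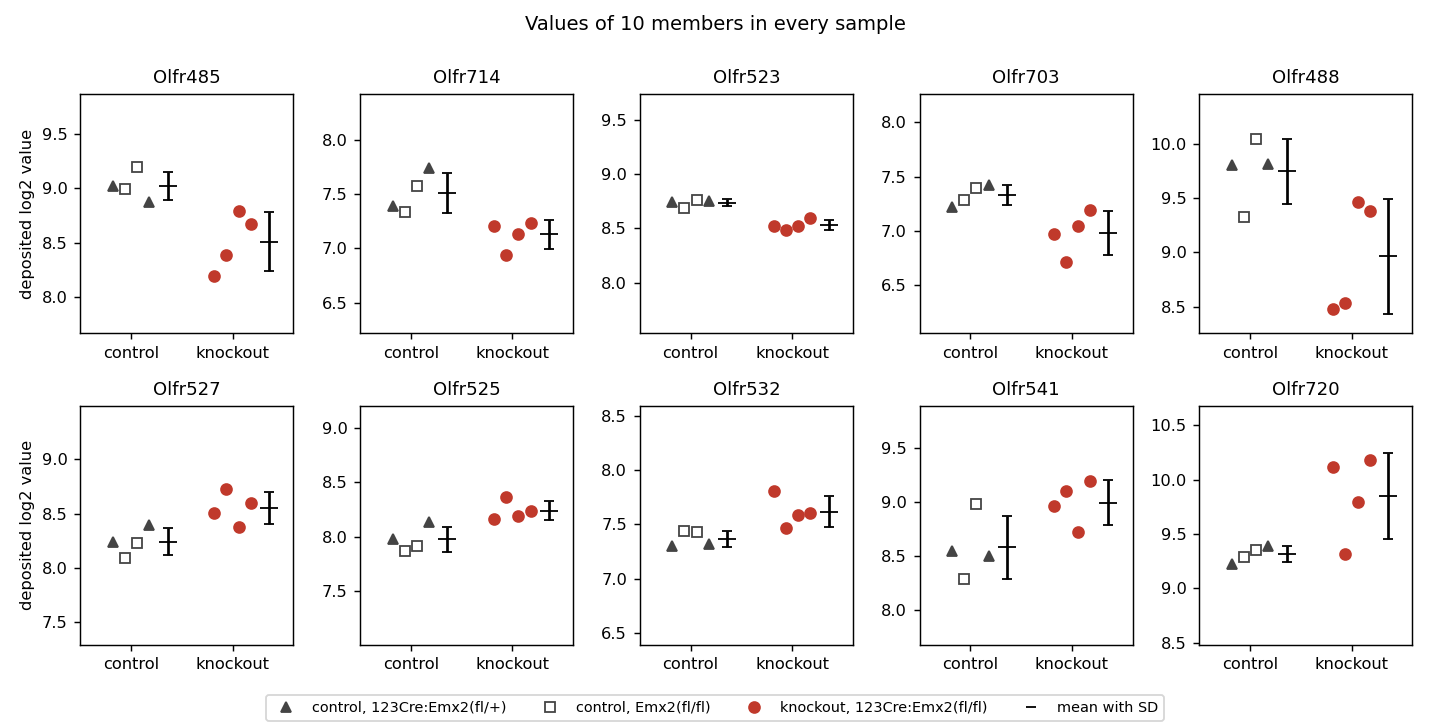
Deposited log2 values (vertical axes, each panel spanning the same number of log2 units around its own mean) of 10 members in the control and knockout samples, with the control genotype by symbol and the mean with SD beside each group. Olfr485, Olfr714, Olfr523 and Olfr703 show no overlap with the knockouts lower and Olfr525 and Olfr532 with the knockouts higher, while 1 knockout of Olfr720 lies among the controls.

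Counted over the members, all 4 knockouts lay below all 4 controls for 5 genes, the 4 at an unadjusted p under 0.01 and Olfr473 (MOR204-4), which was chosen after its values were seen. Olfr473, like Olfr714 and Olfr703, was among the dimmest 30% of rows. The share of all rows with that pattern was 2.54%. It also held for 50 of the 964 other OR rows, among them 10 of the 110 rows of Olfr543 to Olfr693. All knockouts lay above all controls for 2 members, Olfr525 and Olfr532, for 12 of the other OR rows and for 1.98% of all rows. Between the 2 control genotypes, 0 members differed at an unadjusted p under 0.01 in limma, where 0.278% of all rows did, and 0 at an unadjusted p under 0.05, where 2.04% did. The median difference, 123Cre:Emx2(fl/+) minus Emx2(fl/fl), was 0.046 over the members, between -0.272 and 0.43.

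The members' values also differed between arrays A1 to A4 and A5 to A8. Each set of 4 arrays holds 2 knockouts and a control of each genotype, and the sources used here do not say what the number stands for. With the group in the model, 21 members were higher in the last 4 arrays at an unadjusted p under 0.01, where 7.09% of all rows were, and 0 were lower. All 21 were in the central block, and 35.8% of the other OR rows were higher in the same way. With p adjusted over all rows, 0 members passed 0.05, and 38 had an unadjusted p under 0.05 in either direction, as had 30.4% of all rows and 562 of the other OR rows. The central block averaged 7.48 (A1), 7.15 (A2), 6.98 (A3) and 7.31 (A4) in the first arrays, of which A2 and A3 are knockouts, and 7.63 (A5), 7.61 (A6), 7.42 (A7) and 7.53 (A8) in the last, of which A7 and A8 are knockouts. In A1 to A4 both knockouts lay below both controls, and in A5 to A8 they did so by less. In the knockouts alone 12 members were higher in the last arrays at an unadjusted p under 0.01 (4.95% of all rows) and in the controls alone 2 (0.457% of all rows). Knockout replicate 2, array A3, gave the lowest value of all samples for 39 of the 71 members (54.9%), for 67.2% of other OR rows and for 26.2% of all rows.

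**Figure D3:**
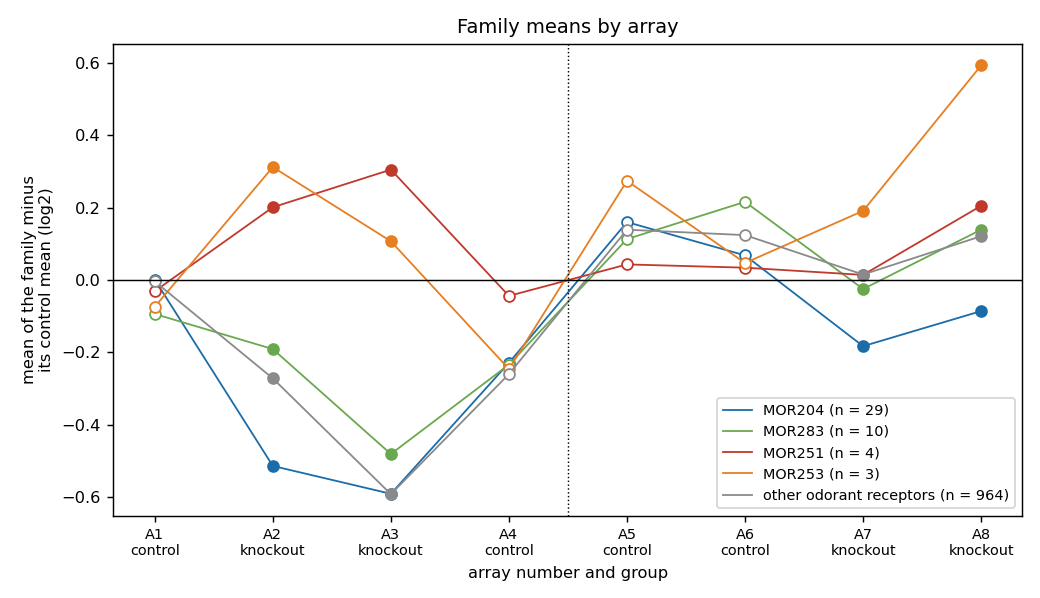
Mean of a MOR family in each array minus the mean of the family's 4 controls (vertical axis, log2) against the array number (horizontal axis), open points for controls and filled points for knockouts, with the other OR rows in grey. The dotted line parts the first and last 4 arrays; MOR204 is lowest in A2 and A3 and is below its control mean in A7 and A8, while MOR251 and MOR253 are above theirs in all 4 knockouts.

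The first and last 4 arrays give separate estimates of the knockout's difference, from different samples. It was below 0 in both for 45 members and above 0 in both for 10, and it changed sign for the rest. Over the 964 other OR rows it was below 0 in both for 567 and above in both for 113. Over all 23410 rows it was below 0 in both for 5945 and above in both for 6384. The first 4 arrays include A3, knockout replicate 2, whose array weight was 0.17. MOR204 was below 0 in both sets for 26 of its 29 genes, with medians of -0.425 in the first and -0.258 in the last. Of the 4 MOR251 genes, Olfr525, Olfr527 and Olfr532 were above 0 in both, as were all 3 MOR253 genes and Olfr720 (0.456 and 0.617). The difference of Olfr523 was nearly the same in both, -0.212 and -0.2. With the first or last 4 arrays as a block in the model, 15 members were lower and 0 higher at an unadjusted p under 0.01, where 1.91% of all rows were lower and 0.726% higher, and 0 passed an adjusted p of 0.05. The 15 comprised the 4 named above and Olfr477, Olfr478, Olfr484, Olfr486, Olfr488, Olfr492, Olfr493, Olfr495, Olfr498, Olfr507 and Olfr510, all 11 of them MOR204 genes. The lowest unadjusted p in that model was 0.000466, for Olfr488.

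**Figure D4:**
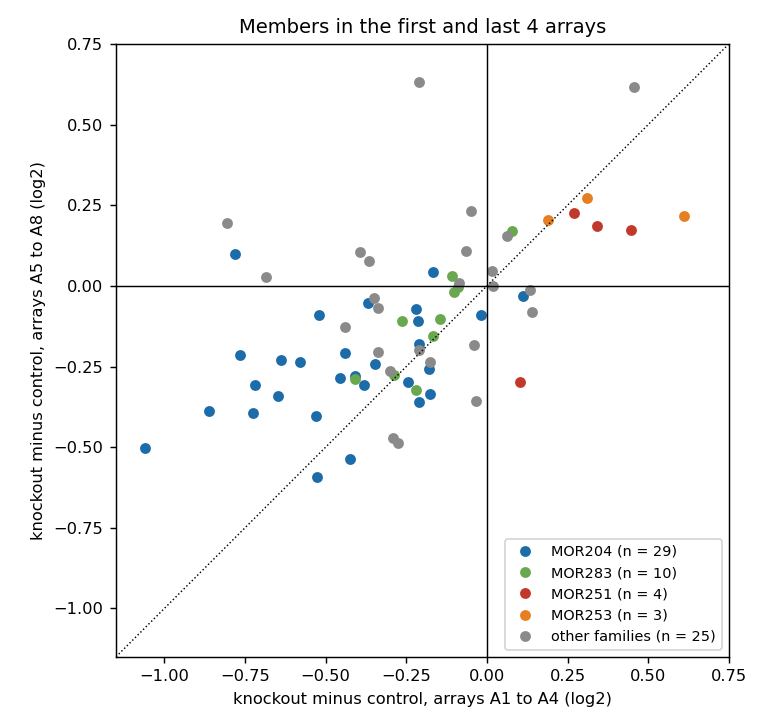
Knockout minus control (log2) in arrays A5 to A8 (vertical axis) against that in arrays A1 to A4 (horizontal axis), 1 point per member, coloured by MOR family, with equality as a dotted line. The lower left quadrant holds 45 members and the upper right 10, and most MOR204 genes lie above the dotted line where their differences are nearer to 0 in the last arrays.

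The edges of the number ranges were set by name and not by values. Olfr467, the first of the range, differed by -0.211 ± 0.126, and Olfr466, just outside it and on chromosome 13, by 0.119 ± 0.287. Olfr543 (MOR42), the first number beyond the range, differed by -0.304 ± 0.159. Olfr693, the last number before the second range, belongs to MOR283 like the members next to it and differed by 0.156 ± 0.276. Each of these values had an adjusted p over 0.8. Over the 110 rows of Olfr543 to Olfr693, of which 107 are class I by name, the median was -0.33, and -0.221 without knockout replicate 2.

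Of the factors listed for OR promoters and OR gene choice, 1 of 15 passed an adjusted p of 0.05, Emx2 itself. Of the 3 OR trafficking genes 0 passed, with Rtp2, which helps carry ORs to the cell surface, at -0.40 ± 0.078 (adjusted p = 0.128). Of the 12 genes of olfactory signal transduction 0 passed, with the chloride channel gene Ano2 at -0.347 ± 0.066 (adjusted p = 0.116). The 3 genes listed for dorsal OSNs had a median of -0.295, with Nqo1 at -0.575 ± 0.14 (adjusted p = 0.316) and Acsm4 at -0.295 ± 0.141 (adjusted p = 0.84). The third, Ncam1, was not checked as a marker of dorsal OSNs. The 4 genes listed for ventral OSNs had a median of 0.086. The part of these lists in the members' differences was not tested.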

How the data were processed

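Total RNA of the olfactory mucosa of 8 mice was hybridised to GeneChip Mouse Gene ST arrays, and the authors deposited log2 values per transcript cluster. Affymetrix Expression Console is named in the submitters' processing notes. Its version, background correction and normalization between arrays are not stated in the sources used here. The methods also describe a normalization to mature OSN mRNAs, and whether the deposited values carry it is not stated. The values were used as they stand. The number of arrays limits the precision. Groups came from the labels, which give no litter or sex per sample, so the p-values reflect only how far these samples spread, which may be technical.

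All 23410 rows with a gene symbol were fitted in limma 3.58.1 (R 4.3.3; lmFit, eBayes, two-sided, without covariates), with Benjamini-Hochberg adjustment over all of them. The study takes a p under 0.01 together with a limit on the false discovery rate. The unadjusted threshold used here takes its 0.01 alone. Named were members with the largest difference at that threshold in each direction (the 5 with the lowest p where fewer passed), the 5 with the highest mean, Olfr523, up to 2 per family or block, and the edges of the number ranges. Of each gene list the genes given with a value are among the 2 with the largest difference. Members and lists were chosen with earlier results of these data known. The procedure was tested on simulated data. Alternatives were another test, normalization, centring, filter, variance model, array weights, array number, control genotype, rows with several symbols and each sample left out.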

Additional observations from a re-analysis of the deposited data

Results flagged for a closer look

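Of 62 groups of 4 samples examined, among the named members and other values of the report, 1 held a sample farther from the rest than Dixon's critical value allows, and chance alone gives about 1 in 20. In Olfr507 control replicate 2 was at 7.665 while the other controls were at 7.993, 7.998 and 8.046, a gap of 0.86 of the group's range. Without that sample the group's difference is larger in size, since it is the lowest of the controls.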

How the results depend on the processing

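The count of 4 members at an unadjusted p under 0.01 was 1 with the methods' t-test, 7 with quantile normalization, 1 without the dimmest 30% of rows (46 members left), 10 with array weights (5 lower and 5 higher), 15 with the first or last 4 arrays as a block, 0 with 123Cre:Emx2(fl/+) controls alone and 2 with Emx2(fl/fl) controls alone. At that threshold 1.74% of all rows were called in the main limma fit and 1.99% with the methods' t-test. The share was 1.65% with quantile normalization, 1.2% without the dimmest 30% of rows and 4.94% with array weights. It was 2.64% with the array block, and 1.01% and 1.33% with the first and second control genotype alone. Over samples left out 1.09% to 3.14% of all rows were called, the latter without knockout replicate 2. The members' count was then 0 to 10. Leaving out knockout replicate 1 gave 0. Leaving out control replicate 1, control replicate 2 or knockout replicate 4 gave 2, 7 and 10, all lower. The direction turned for part of the calls in the rest, with 1 higher and 0 lower when control replicate 3 was left out, 2 higher and 1 lower for control replicate 4, 4 higher and 1 lower for knockout replicate 2, and 1 higher and 4 lower for knockout replicate 3. With Emx2(fl/fl) controls alone 1 was higher and 1 lower. The count of 26 at an unadjusted p under 0.05 (limma) held 6 higher and 20 lower members. It was 15 with the methods' t-test (4 higher and 11 lower), where 1657 of all 23410 rows were called. With centring on mature OSN genes it was 10, of which 6 were higher and 4 lower. It was 11 and 12 with the first and second control genotype alone. Over samples left out it was 13 to 30, with 13 when control replicate 3 was left out. It was 16 when knockout replicate 1 or control replicate 4 was left out. Except for the t-test, the share of all rows at this threshold was not taken for these alternatives, so the counts lack that yardstick. The count of 0 at an adjusted p under 0.05 was 1 with array weights and 0 to 1 over samples left out, 1 without knockout replicate 2. Olfr720 was the member concerned. The members' median stayed between -0.276 and -0.072 over all alternatives. The count of 21 members higher in the last arrays was 12 in knockouts alone and 2 in controls alone. Of 400 values of 24 named members under alternatives, 389 kept their direction and side of an adjusted p of 0.05. In the main fit 0 members passed it. Another 2 values, both of Olfr720, passed it newly. The loss of an unadjusted call was not counted here. With centring on mature OSN genes the unadjusted p (limma) was 0.342 for Olfr523, 0.118 for Olfr703, 0.0723 for Olfr714 and 0.0307 for Olfr485. For 3 members 9 of the 400 values reversed. These were Olfr536 (0.074 with array weights, -0.280 to 0.149 with samples left out, the latter without knockout replicate 2), Olfr716 (0.019 with centring on mature OSN genes) and Olfr520, which is near 0 (-0.029 with quantile normalization, -0.057 with 123Cre:Emx2(fl/+) controls alone, between -0.024 and 0.057 with samples left out, at -0.009 when knockout replicate 2 or control replicate 2 was, -0.017 when control replicate 3 was and -0.024 when knockout replicate 4 was). The cause was not tested, except that fewer rows or samples enter some alternatives. No paired analysis was possible because the labels give the groups no shared replicate numbers.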
